A study of Arabidopsis thaliana with 3 samples.

Results

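Of the 9368 cDNA clones measured on 3 arrays, 91 (0.971%) reached a mean log2 ratio of -5 or lower when agamous and wild-type inflorescences of Arabidopsis thaliana were compared, a difference of 32-fold or more between the channels. They were chosen by the plain mean of the deposited log2 ratios over the 3 arrays. Everything said of the size of those means is therefore a description of the choice. Each array carried total RNA of agamous inflorescences in its second channel and total RNA of wild-type inflorescences in its first, per the labels, which set all arrays in 1 group, called here replicates 1, 2 and 3. The allele of agamous, the accession of the wild type, the age of the plants and the dyes are not stated in the sources used here. The labels also leave unsaid whether separate plants gave the RNA of each array, so spread between arrays may be technical.

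AGAMOUS is a MADS-box transcription factor of the class that gives stamens and carpels their identity, and it also stops the floral meristem from growing on. Flowers that lack its function carry petals where stamens would stand and a new flower where the carpels would stand. They are therefore without anthers, pollen, ovary and ovules. An RNA made in those organs alone would be far less abundant in agamous than in wild-type inflorescences. Which channel stands on top of the deposited ratio is not stated in the labels. A negative ratio is thus reported with its sign as deposited and is read neither as lower nor as higher in agamous. A spotted cDNA clone is known by its plate and well, so that GP008F9 is the clone from plate 008, row F, column 9. Looked up in a RefSeq gene table (assembly TAIR10.1) by symbol, synonym, locus tag and accession, 0 of the 91 names found a gene. The files do not pair clones with genes, so no gene, sequence or position in the genome is given, and the tissue could not be checked against marker genes.

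The means formed a main peak near 0 and a separate, broad hump of negative ratios. In steps of 0.25, the counts dipped to 92 features between -2 and -1.75. They rose to 190 between -3.5 and -3.25 and fell from there downwards. The 91 clones formed the far end of this hump, without a gap at the limit. Their means ran from -6.47 to -5.01 with a median of -5.25, which are 88.9-fold, 32.3-fold and 38.1-fold differences. A mean below -6 was found for 2 clones, one between -6 and -5.5 for 14, one between -5.5 and -5.25 for 30, and one between -5.25 and -5 for 45. The next step of equal width, from -5 to -4.75, held 80 features that were not members. The last members inside the limit were GP044A10 at -5.02 and GP057F3 at -5.01, and the first features outside it were GP076F4 and GP095C2, both at -4.9999. The limit therefore cuts a continuous series of values, and which clones lie past it depends on the arrays used and on their centring. Without replicate 2 the same rule took 178 features, and after centring on the array medians it took 60. A set of 1696 features with means above -5 and at or below -2 is used below for comparison and is called the intermediate clones. At the opposite end of the table the highest mean was 1.99.

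**Figure D1:**
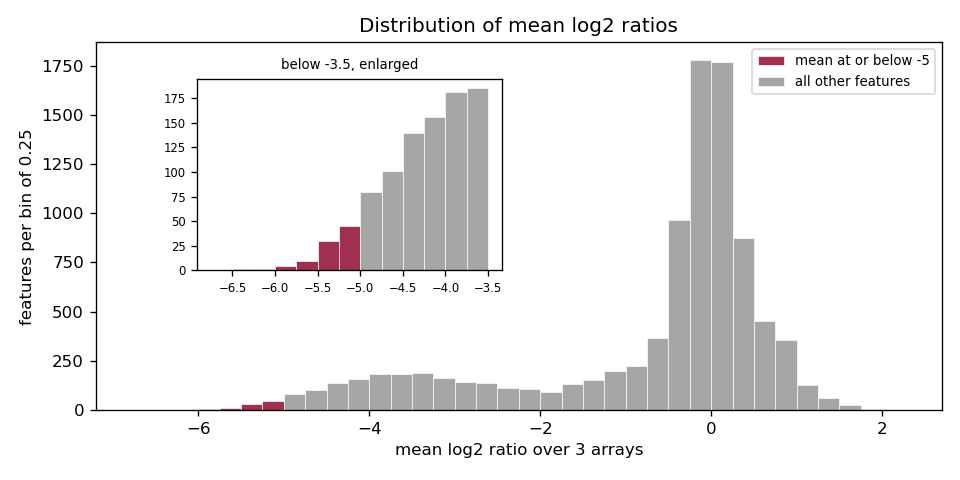
Number of features (vertical axis) per bin of 0.25 of the mean log2 ratio over 3 arrays (horizontal axis), with the 91 clones at or below -5 in red and all other features in grey; the inset enlarges the bins below -3.5. The 91 clones are the low end of a broad hump of negative ratios, set off from the peak near 0 by a dip near -2. The hump already thins from about -4 on.

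The members as a whole were far from 0 on every array. Their values ran from -7.22 to -4.84 in replicate 1 (median -5.60), from -5.46 to -4.13 in replicate 2 (median -4.59) and from -7.13 to -4.63 in replicate 3 (median -5.59). The members' medians averaged -5.26 ± 0.58 on the log2 scale (SD, n = 3 arrays) and replicate 2 alone stood apart from the other arrays. The intermediate clones had medians of -3.82, -3.14 and -3.51 in replicates 1, 2 and 3. Over all features the medians were -0.19, -0.16 and -0.11. All 91 members were called on the negative side by limma's moderated test of the mean against 0 (Benjamini-Hochberg adjusted p under 0.05 over all features), where 32.7% of all 9368 features were. The choice of the members used the same contrast, so nothing is read from that count.

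Among the 10 lowest clones the mean lay between -6.47 and -5.64. GP008F9 had log2 ratios of -7.22, -5.07 and -7.13 in replicates 1, 2 and 3, the lowest value of replicates 1 and 3 over the whole table. Its mean was -6.47 ± 1.22 (SD, n = 3 arrays), or 88.9-fold. GP105A1 had -6.80, -4.99 and -6.69, a mean of -6.16 ± 1.01 (SD, n = 3) or 71.5-fold. On both clones replicates 1 and 3 stood close together while replicate 2 was nearer to 0. GP090C3 had -6.18, -5.11 and -6.20, a mean of -5.83 ± 0.62 (SD, n = 3). GP094D2, at -6.14, -5.05 and -6.24, followed with a mean of -5.81 ± 0.66 (SD, n = 3). These 2 clones came from different plates and had nearly the same value on each array.

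Replicate 2 was also nearest to 0 in the next clones, except in GP063F9. GP063F9 had -6.45, -5.46 and -5.42 in replicates 1, 2 and 3, the lowest value of replicate 2 in the table, with a mean of -5.78 ± 0.59 (SD, n = 3). GP044A5 had -5.81, -4.62 and -6.89, a mean of -5.77 ± 1.13 (SD, n = 3) and the widest range of all members, 2.27. Thus GP063F9 was lowest in replicate 1 and GP044A5 in replicate 3, while their means were nearly equal. GP056A9 (-6.41, -4.66 and -6.07), GP009A9 (-6.60, -4.58 and -5.92) and GP077B1 (-6.43, -4.74 and -5.76) had their lowest value in replicate 1 and means of -5.71, -5.70 and -5.64. GP007D4, at -6.09, -5.13 and -5.89, had a mean of -5.70 ± 0.51 (SD, n = 3). GP008F9 lay below GP105A1 on all 3 arrays, while no single order of the clones from GP090C3 to GP077B1 held on every array.

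**Figure D2:**
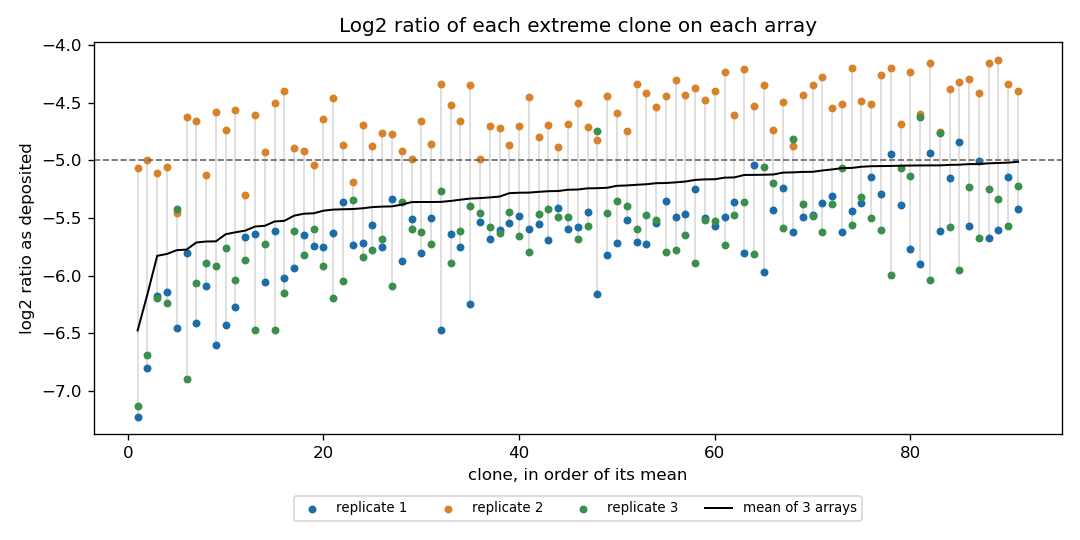
Log2 ratio as deposited (vertical axis) of each of the 91 clones on each array (coloured points, joined by a grey line), with clones in order of their mean (black line) and the limit of -5 dashed. Replicate 2 is nearest to 0 for 88 of the 91 clones, while replicates 1 and 3 interleave.

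The limit was passed on different numbers of arrays. At or below -5 lay 88 members in replicate 1 and 87 in replicate 3, but only 8 in replicate 2, which had no other feature there. Over the whole table, 228 features reached -5 in replicate 1 and 183 in replicate 3. Of the 91 members, 76 passed on 2 arrays, 8 on all 3 and 7 on 1. The 8 clones past -5 on every array were GP008F9, GP090C3, GP094D2, GP063F9, GP007D4, GP125C3, GP104C10 and GP064E9, with means from -6.47 to -5.42. The 7 that passed on a single array had means between -5.24 and -5.04, and 3 of them passed in replicate 3 alone. GP060E3, one of these, had -4.93, -4.16 and -6.04 in replicates 1, 2 and 3. Conversely, 109 features passed on exactly 2 arrays, and 33 of them missed the mean of -5.

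Replicate 2 was the array nearest to 0 for 88 of the 91 members (96.7%). The other 3 clones, GP063F9, GP061C1 and GP009C5, were nearest to 0 in replicate 3, and none was in replicate 1. Among the intermediate clones replicate 2 was nearest to 0 for 1206 of 1696 (71.1%). Over all features the log2 ratios of replicate 2 also had the smallest SD, 1.40 against 1.69 in replicate 1 and 1.55 in replicate 3. The quotient of a member's log2 ratio in replicate 2 over that in replicate 1 had a median of 0.821, with quartiles of 0.788 and 0.859. For the intermediate clones the median quotient was 0.828, so the ratios of replicate 2 were smaller than those of replicate 1 by a like factor in both sets. Replicate 3 over replicate 1 gave a median of 0.993 in the members and 0.921 in the intermediate clones. The members were picked for a low mean, which favours clones that happen to be low on an array, and no test of these differences was run.

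In absolute terms the arrays differed by more for the members than for less extreme clones, whose ratios were also smaller. The median of the means was -5.25 in the members, -3.49 in the intermediate clones and -0.13 over all features. The spread was not scaled by the size of the ratio. The SD of a member over the 3 arrays had a median of 0.63 (range 0.28 to 1.22), against 0.45 for the intermediate clones and 0.24 over all features, all on the log2 scale and with no test. The 3 members with the narrowest range were GP083G6 (-5.53, -4.99 and -5.45), GP064E9 (-5.74, -5.19 and -5.34) and GP125C3 (-5.66, -5.30 and -5.86 in replicates 1, 2 and 3). Their values spanned 0.54 to 0.56, and replicate 2 was nearest to 0 in these clones too. At the other end GP069B1, with -6.47, -4.34 and -5.27, spanned 2.13, next to GP008F9 with 2.15 and GP044A5 with 2.27. Quantile normalization, which gives all arrays the same set of values, brought the median SD of the 91 clones to 0.24. Median centring with scaling of each array by its median absolute deviation gave 1.17. The median absolute deviation describes the middle of an array, and it was smallest in replicate 3 (0.38, against 0.55 in replicate 1 and 0.45 in replicate 2), although replicate 3 reached nearly as far down as replicate 1.

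Within the 91 clones the arrays kept little of each other's order. Taken across the members, which share their arrays and are no independent samples, replicates 1 and 2 gave a Pearson's r of 0.410, replicates 1 and 3 one of 0.232, and replicates 2 and 3 one of 0.148. The intermediate clones, which cover a wider span of means, gave 0.820, 0.746 and 0.774 for the same pairs. Spearman's rank correlations for these pairs were 0.354, 0.043 and 0.134 in the members and 0.861, 0.772 and 0.800 in the intermediate clones. Over all features, which cover the widest span, Pearson's r was 0.970, 0.951 and 0.956 and Spearman's correlation was 0.894, 0.847 and 0.851. A narrow span lowers such correlations by construction, as can a choice by the mean of the same arrays. The paired values share the clone and its well, and whether the arrays also share RNA is not stated. The 91 lowest features of each array on its own were also compared. They held 67 members in replicate 1, 59 in replicate 2 and 70 in replicate 3, and 39 features, all of them members, were on all 3 lists. The lists of replicates 1 and 2 shared 54 features, those of 1 and 3 shared 51, and those of 2 and 3 shared 50. GP057F3 (-5.42, -4.40 and -5.22), the last clone inside the limit, was the single member on none of the 3 lists.

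**Figure D3:**
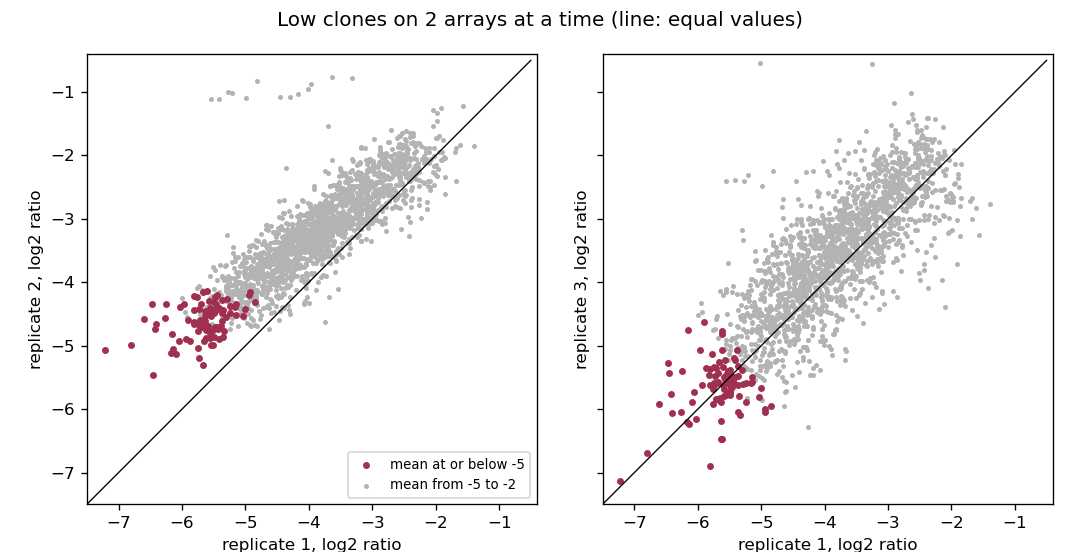
Log2 ratio in replicate 2 (left) and replicate 3 (right) against replicate 1, for the 91 clones with a mean at or below -5 (red) and the 1696 with a mean from -5 to -2 (grey); the line marks equal values. All 91 red points lie above the line on the left, and they lie on both sides of it on the right.

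Clones chosen on 2 arrays were then described on the third, which had no part in that choice. By the mean of replicates 2 and 3, 62 features lay at or below -5, and in replicate 1 they ran from -7.22 to -4.46 with a median of -5.60. By the mean of replicates 1 and 2, 74 features did, and in replicate 3 they ran from -7.13 to -3.69 with a median of -5.54. By the mean of replicates 1 and 3, 178 features did, including all 91 members, and in replicate 2 they ran from -5.46 to -3.60 with a median of -4.41. Every clone so chosen was thus below -2 on the array left aside, where between 18.3% and 19.9% of all features were. Over all features the arrays gave a Pearson's r between 0.951 and 0.970, and they may share RNA. A value below -2 was therefore largely set by the choice at -5, and nothing is read from that count. The array left aside reached -5 for 56 of 62 clones in replicate 1 and 58 of 74 in replicate 3, but for 8 of 178 in replicate 2.

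The members were scattered over 51 of the 114 plates, from plate 001 to plate 141. Single members were found on 26 plates, 2 members on 14, 3 on 7 and 4 on 4, and 63 plates held none. The 4 plates with 4 members each were 009, 044, 061 and 064, with 81 to 90 features apiece. The plates held between 28 and 94 features.

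Along the plate numbers, the share of members was lower on the later plates. In blocks of 20 plate numbers, members made up 1.51% of the features on plates 000 to 011 (12 of 797), none of the 246 features on plates 032 to 035, 1.995% on plates 041 to 059 (17 of 852), 1.59% on plates 060 to 079 (28 of 1763), 0.958% on plates 080 to 099 (17 of 1774) and 0.766% on plates 100 to 119 (13 of 1697). On plates 120 to 147 the share was 0.179% (4 of 2239), against 1.22% (87 of 7129) on all plates below 120. The 4 members there were GP125C3, GP138E9, GP120C9 and GP141H1, named after their values were seen, with means of -5.61, -5.52, -5.38 and -5.24. Intermediate clones made up 3.04% of the features on plates 120 to 147 and 22.8% on plates below 120. Set against all clones at or below -2, the members' part was 5.56% (4 of 72) on plates 120 to 147 and 5.07% (87 of 1715) on plates below 120. Below plate 120 that part was smaller in the higher blocks, being 12.1% on plates 000 to 011, none of 15 clones on 032 to 035, 7.62% on 041 to 059, 6.06% on 060 to 079, 3.48% on 080 to 099 and 3.04% on 100 to 119. These are counts, with no test.

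**Figure D4:**
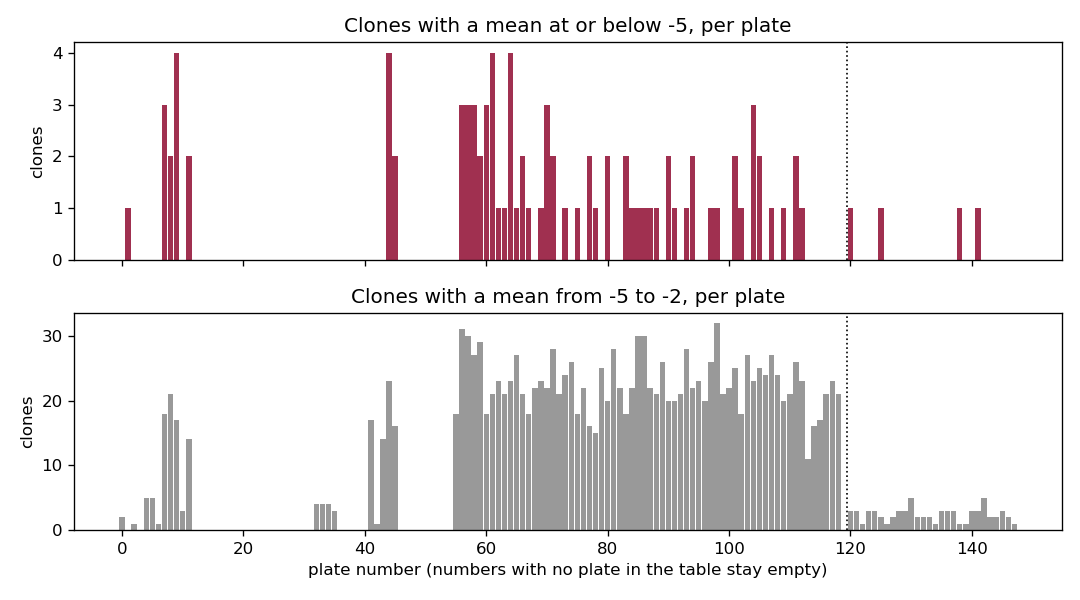
Number of clones with a mean at or below -5 (top, red) and from -5 to -2 (bottom, grey) on each plate, by plate number; the dotted line separates plates below 120 from plates 120 to 147. Both sets thin out to the right of the line, and no plate holds more than 4 of the 91 clones.

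The place of a clone in its 96-well plate, which the choice did not use, was uneven over the columns of the plate. Column 9 held 19 of the 91 members (2.41% of its 787 features), from 17 plates and all 8 rows. Column 11 held 1 of 800 (0.125%), column 4 held 2 of 807 (0.248%) and column 12 held 2 of 787 (0.254%). Of the 10 lowest clones, 4 came from column 9. Intermediate clones were spread far more evenly, between 15.6% of the features in column 3 (114 clones) and 19.9% in column 9 (157 clones). The members' counts per column, 1 to 19, were much smaller, and small counts vary more in relative terms. The unevenness was not tested. Over the 8 rows the members' share ran between 0.681% in row H and 1.24% in row F.

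The columns were then grouped by steps of 4, a grouping made after the counts were seen. Columns 1, 5 and 9 together held 42 members of 2350 features (1.79%), columns 2, 6 and 10 held 24 of 2299 (1.04%), columns 3, 7 and 11 held 18 of 2338 (0.770%), and columns 4, 8 and 12 held 7 of 2381 (0.294%). The sets were not uniform within: columns 3, 7 and 11 held 11, 6 and 1 members, so that column 3 (1.51%) was above column 5 (1.29%) and column 11 was the lowest of all. Columns 1, 5 and 9 held 13, 10 and 19 members, columns 2, 6 and 10 held 8, 7 and 9, and columns 4, 8 and 12 held 2, 3 and 2. The intermediate clones made up 18.5%, 18.6%, 17.3% and 18.1% of the same 4 sets of columns. On plates 060 to 119 the members numbered 28, 19, 9 and 2 in these sets, on plates below 060 they numbered 11, 5, 8 and 5, and on plates 120 to 147 they numbered 3, 0, 1 and 0. Columns 1, 5 and 9 held the most in each range of plates, and no difference between the ranges was tested. The 91 lowest features of replicate 1 alone numbered 56, 17, 11 and 7 in the 4 sets. Those of replicate 2 numbered 33, 28, 14 and 16, and those of replicate 3 numbered 31, 25, 22 and 13. On all 3 arrays columns 1, 5 and 9 held the most, and in replicate 1 by the widest margin.

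The depth of low ratios in general moved with the same sets of columns. Over all 1787 clones at or below -2, members included, the median log2 ratio in replicate 1 was -4.34 in columns 1, 5 and 9, -3.97 in columns 2, 6 and 10, -3.81 in columns 3, 7 and 11, and -3.49 in columns 4, 8 and 12. In replicate 2 the medians were -3.38, -3.18, -3.18 and -3.07, and in replicate 3 they were -3.71, -3.67, -3.55 and -3.34. Features with a mean within 1 of 0 showed medians between -0.03 and 0.09 in all sets and arrays. The part that well position has in which clones reached -5 was not tested.

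**Figure D5:**
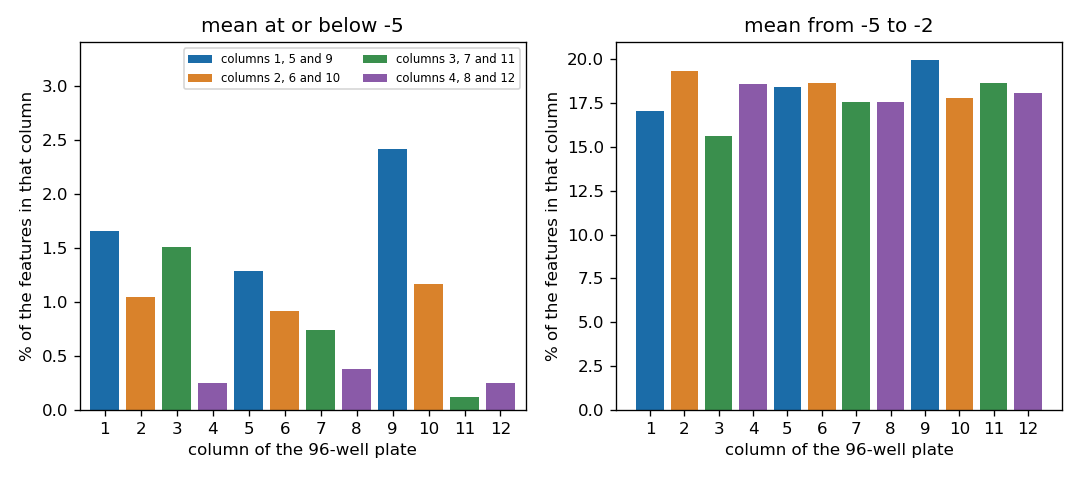
Percent of the features in each column of the 96-well plates with a mean log2 ratio at or below -5 (left) and from -5 to -2 (right), with a shared colour for columns that lie 4 apart. On the left columns 4, 8, 11 and 12 each stay below 0.4% and column 9 reaches 2.41%; on the right all columns lie between 15.6% and 19.9%.

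Members in next wells were found along columns and not along rows. Members made up 0.971% of all features, and no expected number of such pairs was worked out. Of 7565 pairs of features in next wells of a row, 0 were pairs of members, and of 7264 pairs in next wells of a column, 4 were. GP007D4 and GP007E4 formed the first pair, with -6.09, -5.13 and -5.89 in the first clone and -5.56, -4.40 and -5.52 in the second. GP064E9, GP064F9 (-5.48, -4.70 and -5.66) and GP064G9 (-5.81, -4.66 and -5.62) stood in a run of 3 wells. GP111E1 (-5.47, -4.34 and -5.48) and GP111F1 (-5.57, -4.30 and -5.23) were the most alike, with a root mean square difference of 0.16 over the arrays. The clones of the first pair differed by 0.56, GP064E9 and GP064F9 by 0.37, and GP064F9 and GP064G9 by 0.19. Whether neighbouring members hold the same cDNA was not tested.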

How the data were processed

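The authors deposited a log2 ratio for each of 9368 features on each of 3 arrays with 2 channels. The authors preprocessed and normalized them as in a publication of the group, per the labels; the labels do not list the steps. The log2 scale was read from the deposited values: times the natural logarithm of 2, between 98.8% and 98.9% lie on a grid of 0.0001 (tolerance 1.2e-06), as do all values of the 91 members. The numerator and the authors' centring are unknown; the array medians were -0.19, -0.16 and -0.11. Arrays were not recentred. No intensities or flags were used; having 3 arrays limits the precision.

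Members were features with a plain mean at or below -5. The members, lists and plate ranges were chosen with earlier results of these data known. The fit over all features was limma 3.58.1 under R 4.3.3 (a two-sided moderated test of the intercept, 2 residual degrees of freedom). It was checked on simulated data that follow the model's own assumptions, so how well these data meet them was not checked. Counts used Python 3.11.15, NumPy 2.4.6 and pandas 2.3.3. Named clones were the 10 lowest means, the 2 on each side of the limit, the 3 widest and 3 narrowest ranges, and members in neighbouring wells; others are named where a count was small. Where values tied at the end of an array's list of 91 lowest features, file order decided. Alternatives were other centring, scaling and normalization, other ways of applying the limit, another variance model and threshold, and leaving out each array.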

Additional observations from a re-analysis of the deposited data

How the results depend on the processing

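The number of clones past the limit depended on centring and on replicate 2. It was 91 with the deposited values, with each array centred on its main peak and with quantile normalization (which kept 85 of the same clones), 82 with centring and scaling by the median absolute deviation, and 60 with median centring. Leaving out 1 array gave 62 to 178 clones, the highest without replicate 2. Asking for -5 on every array left 8, on at least 2 arrays or by the median of the arrays 117; limits of -4.5 and -5.5 gave 272 and 16. Of neighbouring wells, 4 pairs lay along columns and 0 along rows. In all settings of centring, scaling, normalization and arrays left out, the median mean of the clones past the limit lay between -5.32 and -5.19. The limit of -5 was applied anew in each setting, so a median just below it follows from the rule. The share of these clones on plates below 120 lay between 93.3% and 97.2% in the same settings. Those plates held 76.1% of all features and, with the deposited values, 1715 of the 1787 clones at or below -2. The share is thus no trait of the extreme clones alone. All 91 clones were called by limma in every setting run, which follows from their choice on the same contrast. With the deposited values, 45.2% of all features were called in either direction. The negative calls over all features were 2595 to 3646, within 1.5 times of 3064. For the 23 named clones, all 161 means under these settings were negative. These clones were picked past the limit or next to it, so nothing is read from that count. The test of the mean ratio against 0 compared the 2 channels within each array and so used that pairing. All arrays belong to a single group, so no pairing between groups was possible. Signal over background was not used here, so dim spots could not be set apart.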

Other observations

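A band of clones lay outside the members although some of its values in replicate 1 were as low as theirs. It was picked after the values were plotted, as the features at or below -3 in replicate 1 and above -1.2 in replicate 2, so the gap between those arrays follows from the choice. The band had 19 clones from 16 plates. In replicate 1 they ran from -5.55 to -3.05 (median -4.02), in replicate 2 from -1.11 to -0.46 (median -0.95) and in replicate 3 from -2.49 to -1.34 (median -2.25). The 4 of them in columns 1, 5 and 9, GP070F5, GP086D1, GP100A9 and GP065C5, had -5.55, -5.42, -5.27 and -5.21 in replicate 1. On the other arrays these 4 differed by little, with -1.11 to -1.001 in replicate 2 and -2.41 to -2.30 in replicate 3. The 5 clones in columns 2, 6 and 10 had -4.99 to -3.20 in replicate 1, -1.10 to -0.51 in replicate 2 and -2.49 to -1.68 in replicate 3. The 5 in columns 3, 7 and 11 were nearest to 0 on the whole, with -3.32 to -3.05, -0.78 to -0.46 and -2.31 to -1.34 on the same arrays. The 5 clones in columns 4, 8 and 12 had -4.29 to -3.08 in replicate 1, -1.07 to -0.87 in replicate 2 and -2.26 to -1.60 in replicate 3. The cuts used to pick the band also bound the values of each set of columns in replicates 1 and 2. The differences between these sets were not tested. GP070F5 and GP070F4 lay in next wells of a single row and differed by 1.25 in replicate 1 (-5.55 and -4.29), by 0.03 in replicate 2 (-1.11 and -1.07) and by 0.14 in replicate 3 (-2.40 and -2.26). Whether the clones of the band hold the same cDNA was not tested.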
